A study of Homo sapiens with 18 samples.

Results

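The effect of Nutlin at 6 h was set against the effect of 5-fluorouracil (5-FU) at 24 h, copy by copy. The copies were annotated repeat elements of IMR90 cells, which are human lung fibroblasts. The copies compared were those listed in both count tables of the study, 1928155 copies out of 2404193 listed for 5-FU and 1996647 listed for Nutlin. Of these, 21020 copies (1.09%) held enough counts to be tested for both drugs, and the comparisons are over them. A further 42582 copies passed the filter in the 5-FU table alone, 962 of them called at 24 h, and 308 passed it in the Nutlin table alone, 90 of them called under Nutlin. These could not be called shared or drug-specific, since the other drug was not tested at them.

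The comparison used 8 libraries of total RNA, 2 in each of 4 groups. The Nutlin group was kept for 6 h with the drug at 5 µM and its control for 6 h with DMSO at matching volume. The 5-FU group was kept for 24 h with 375 µM of the drug and its control for 24 h with DMSO. The 5-FU libraries at 6 and 12 h, each with its own DMSO pair, and untreated cells served for the estimate of the spread and for the time course. No control library was shared by the 2 drug effects. Drug, dose and time differed together between the groups, so a difference between the effects cannot be assigned to one of them. The labels do not say that replicates came from separate cultures, and p-values then measure only the spread between these samples.

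Total counts per library were 2412334 to 6290320 for the 5-FU series and 9109885 to 11880265 for the Nutlin series. A single 7SL RNA copy on chromosome 14 held 60.4% to 66.3% of the counts of the Nutlin table but 0.987% to 4.23% in the 5-FU table. CPM values (counts scaled to the size of their library with TMM factors) are therefore comparable between libraries of 1 table and not between the tables, and only log2 fold changes over the DMSO of the same table were set side by side. Copies are given by chromosome, start and end in hg19, the build in the submitters' processing notes. No gene annotation of that build was used, and copies were therefore not assigned to genes, exons or introns, and the tables hold no gene from which the cell type could be checked.

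Nutlin fits into the pocket of MDM2 that binds p53. It thereby stabilises p53, a transcription factor that activates cell cycle arrest and death genes, without damaging DNA. 5-FU is a pyrimidine analogue that blocks thymidylate synthase and is built into RNA and DNA, and it activates p53 through damage and ribosomal stress while it disturbs both nucleic acids directly. Repeat elements include Alu (short, copied by retrotransposition), L1 (the autonomous retrotransposon of the human genome), LTR elements (remnants of retroviruses) and DNA transposons. Their copies lie both within and between genes, and reads from a copy can come from the transcript it is embedded in. Some LTR families, LTR10 and MER61 among them, are known for carrying p53 binding sites.

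Nutlin changed 1951 of the 21020 copies (9.28%) by the quasi-likelihood test of edgeR at an adjusted p under 0.05. Of these, 1062 (5.05% of tested copies) were higher and 889 (4.23%) lower. 5-FU at 24 h changed 1731 (8.24%), with 808 (3.84%) higher and 923 (4.39%) lower. Both drugs changed 459 copies, which is 23.5% of the Nutlin list and 26.5% of the 5-FU list. Of these 459, 397 (86.5%) changed in the same direction, against 55.2% of all tested copies whose fold changes had the same sign. The shared copies comprised 162 that were higher under both drugs (0.771% of tested copies) and 235 that were lower under both (1.12%). Another 62 copies went in opposite directions. The difference between the effects was tested directly in a joint fit and was called at 1361 copies (6.47%), at 724 (3.44%) with the higher value under Nutlin and at 637 (3.03%) with the higher value under 5-FU. Libraries of drug and DMSO did not overlap at 26.7% of tested copies upward and 26.9% downward under Nutlin, and at 24.4% and 25.1% under 5-FU. They did not overlap in both tables at 8.40% of tested copies upward and 8.97% downward. In bulk RNA, fewer cells that make a transcript and less of it per cell cannot be told apart.

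With scaling by library size alone the calls were 758 higher and 1262 lower under Nutlin, and 617 higher and 1435 lower under 5-FU, with the median of all copies shifted to -0.14 and -0.16 on the log2 scale. The balance of higher to lower copies thus turned with the scaling for Nutlin. All 397 shared and 62 opposite copies kept the sign of both effects under RLE size factors, library size alone and DESeq2.

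Across the 21020 copies, the log2 fold changes of the 2 drugs correlated weakly (Pearson r = 0.234, Spearman rho = 0.174). With a single drug library in place of each pair, r ran from 0.182 to 0.237 (SD 0.0235 over the 4 combinations). These r values came from log2 CPM, with 0.5 CPM added, against the DMSO mean rather than from the fitted fold changes. The 4 combinations reuse the same drug and DMSO libraries, so the SD does not measure the spread of r between experiments. The copies are not independent, since neighbours can lie in 1 transcript and all share the same 8 libraries. Among the 459 copies called for both drugs r was 0.771, which the selection of called copies raises.

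**Figure D1:**
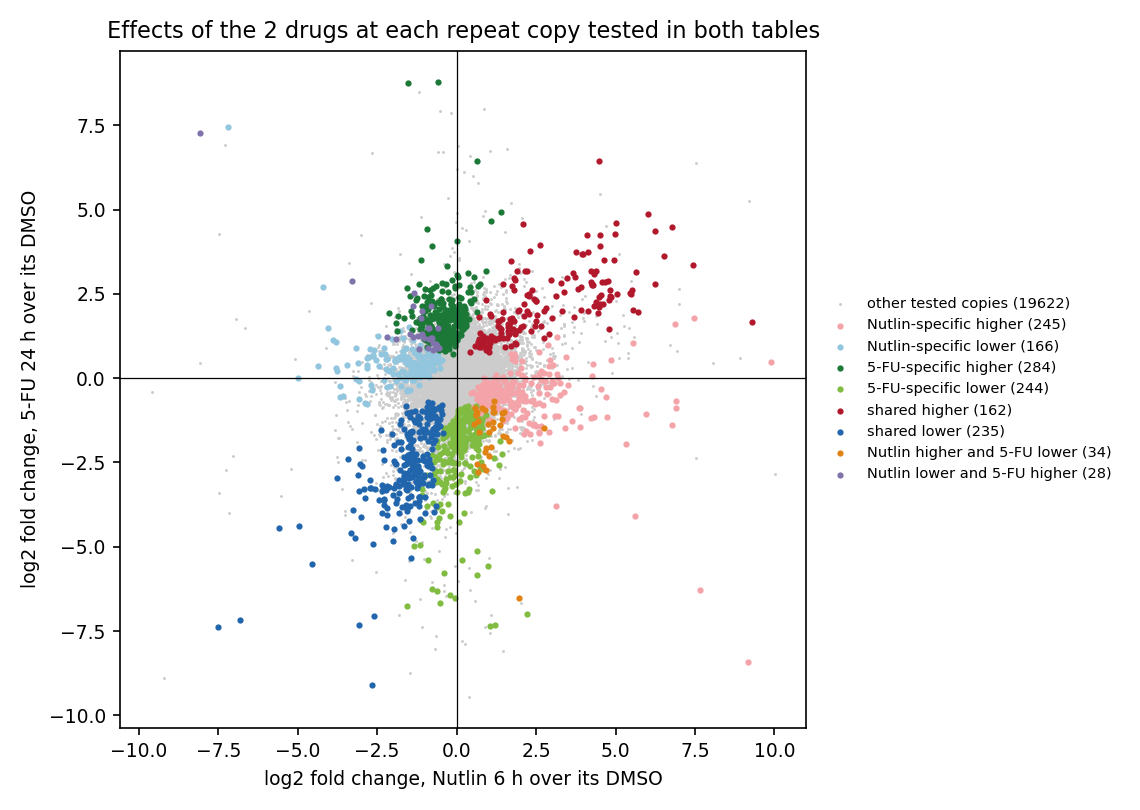
Each point is 1 of the 21020 tested repeat copies, with the log2 fold change of Nutlin at 6 h over its DMSO on the x axis and of 5-FU at 24 h over its DMSO on the y axis, coloured by category. The 162 shared higher copies (medians 2.25 and 1.98) lie in the upper right quadrant, the 235 shared lower copies (medians -1.41 and -2.57) in the lower left, and the 62 opposite copies fill the other 2 quadrants.

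The copies higher under both drugs were concentrated at few places. The 162 copies fell into 66 runs (copies joined where the gap was at most 50 kb), of which 47 held a single copy and 9 held 3 or more, together 95 copies. Their median log2 fold change was 2.25 under Nutlin and 1.98 under 5-FU at 24 h. Another shared higher copy lay within 50 kb of 71.0% of them, against 2.08% of all tested copies. Without the largest run this held for 70 of 117 (59.8%). Chromosome 12 held 58 of the 162, while it held 1142 of the 21020 tested copies. Copies in 1 run may belong to 1 transcript and are not separate observations.

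The largest run spanned 42.0 kb on chromosome 12 (69204637 to 69246640) and held 45 shared higher copies among 59 tested. Summed over the 45 copies, the DMSO libraries of the Nutlin table had 181 and 167 CPM and the Nutlin libraries 4121 and 3963 CPM. In the 5-FU table the sums were 499.5 and 404 CPM with DMSO at 24 h and 2769 and 2003 CPM with 5-FU. In these sums both drug pairs stood far above their DMSO pairs. Most of each sum came from a few neighbouring copies, so the sums do not describe the whole run. An AluY copy (69233935 to 69234223) had 55.6 and 48.9 CPM with DMSO and 1118 and 1070 CPM with Nutlin. Near it, an AluSz copy (69234616 to 69234915) had 39.3 and 41.9 CPM with DMSO and 939 and 914 CPM with Nutlin. Copies nearer the start of the run mostly had few counts with DMSO. Over the 45 copies, the median log2 fold change was 4.66 under Nutlin (4.61 with the 2 copies at 0 counts in DMSO set to their bound of 3 counts). It was 2.76 under 5-FU at 24 h, and 1.93 under 5-FU at 6 h, where 19 of the 45 were called higher. The difference was called at 22 of the 45 copies, each with the larger effect under Nutlin. By class the run held 31 Alu copies, 6 L2 or HAL1 copies, 4 DNA transposons, 2 MIR copies, 1 L1, 1 LTR element.

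The 2 effects were also set out along this run, without a test of a trend. Over the 13 tested copies in the first 10 kb the medians were 4.52 under Nutlin and 3.69 under 5-FU, and the difference was called at 1 copy. Over the 29 copies beyond 25 kb they were 4.79 and 2.44, and 19 differences were called. The 17 copies in between had medians of 4.82 and 2.28, with 3 called. Fewer called differences in the first stretches do not show that the effects were alike there.

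**Figure D2:**
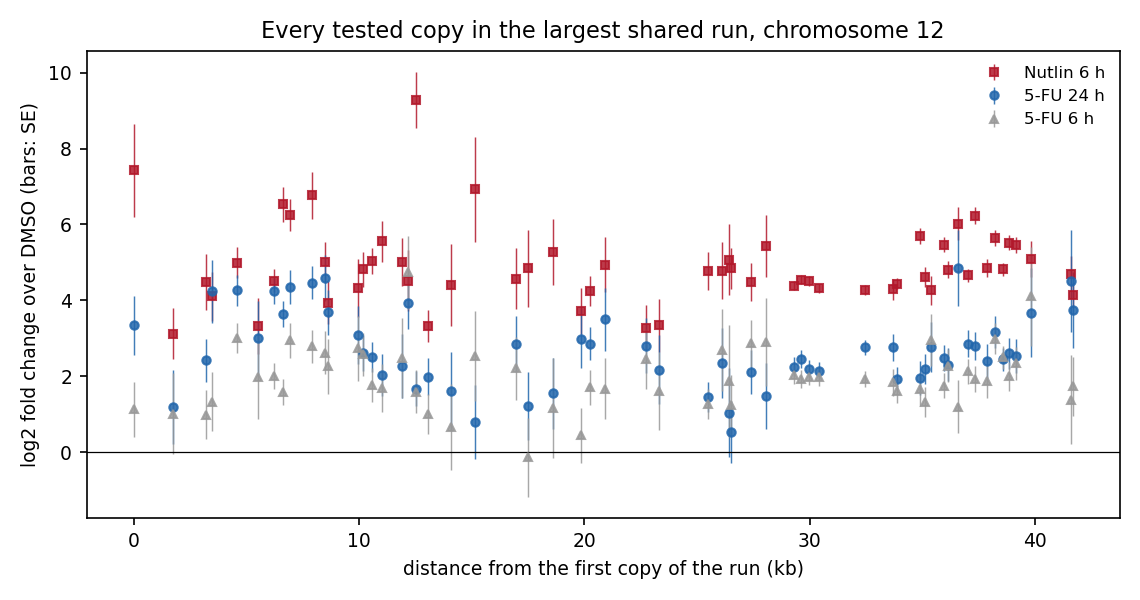
Log2 fold change over DMSO (points, with SE bars) of all 59 tested copies in the largest shared run, against the distance in kb from its first copy, for Nutlin at 6 h, 5-FU at 24 h and 5-FU at 6 h. Nutlin medians are 4.52 in the first 10 kb, 4.82 from 10 to 25 kb and 4.79 beyond 25 kb. Single values scatter widely around them, from 3.29 to 9.28 over the 45 shared higher copies. An L2c copy at 9.28 and an AluSp copy at 7.43 had 0 counts in both DMSO libraries of the Nutlin pair, so these values are not measured ratios. The 5-FU 24 h median is 3.69 in the first 10 kb and 2.44 beyond 25 kb.

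Within this run an L1MA5A copy (chromosome 12, 69237117 to 69237249), an old L1 fragment, had 9.29 and 7.40 CPM with DMSO and 169 and 153 CPM with Nutlin. In the 5-FU table it had 21.2 and 17.2 CPM with DMSO at 24 h and 127 and 133 CPM with 5-FU. The log2 fold changes were 4.27 (SE 0.14, adjusted p = 2.51e-09) and 2.76 (SE 0.21, adjusted p = 9.20e-08), and they differed by 1.51 (SE 0.25, adjusted p = 0.00104). An AluSz copy at 69234279 to 69234586 went from 25.9 and 25.7 CPM to 609.8 and 597 CPM under Nutlin. Under 5-FU it went from 75.6 and 57.8 CPM to 454 and 279.9 CPM. Its effects of 4.54 and 2.46 differed by 2.09 (SE 0.30, adjusted p = 2.48e-04).

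The next 4 runs by number of copies lay on chromosomes 3, 6, 12 and 22. On chromosome 6 (36648896 to 36655104), 9 of 13 tested copies, mainly MIR copies, were shared higher, with medians of 3.96 and 3.12. Their summed CPM went from 154 and 139.6 to 2065 and 2128 under Nutlin and from 476 and 419.8 to 3590 and 2090 under 5-FU, so the 5-FU libraries differed more from each other than the Nutlin libraries did. Nearly all of this came from 1 L2b copy (36654978 to 36655104), with 152 and 138 CPM before and 2034 and 2098 CPM after Nutlin. Under 5-FU this copy went from 459 and 404 to 3424 and 1989 CPM, and its effects of 3.83 and 2.65 differed by 1.18 (SE 0.32, adjusted p = 0.0285). That call was lost with the replicate number as a block (adjusted p = 0.0607), with only the 8 libraries of the comparison (0.178), and in 6 of the 8 fits that left out 1 library (0.0511 to 0.12), those without a library of the Nutlin table or a DMSO 24 h library. On chromosome 3 (178668031 to 178741807), 13 of 16 copies were shared higher, and here the 5-FU effect was the larger, with a median of 2.97 against 1.79, although only 1 difference was called, with the larger effect under 5-FU. On chromosome 12 (4450541 to 4469265), 11 of 13 copies had medians of 2.29 and 2.00. The run on chromosome 22 (39414703 to 39416354) had 4 of 5 copies with medians of 0.75 and 1.02. As background, MDM2 and CDKN1A, the inhibitor of cyclin-dependent kinases that p53 activates, are encoded on chromosomes 12 and 6. Whether these runs lie in them was not analysed here.

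Outside runs, an L2c copy on chromosome 10 (90774362 to 90774466) went from 10.6 and 12.1 to 47.6 and 50.7 CPM under Nutlin. Under 5-FU it went from 36.3 and 27.0 to 136 and 90.9 CPM. The effects, 2.11 (SE 0.13, adjusted p = 1.53e-06) and 1.84 (SE 0.22, adjusted p = 2.72e-05), differed by 0.27 (SE 0.28, adjusted p = 0.649). Leaving out the largest run, the other 117 shared higher copies had medians of 1.78 and 1.69, with 3 called differences in each direction. The surplus under Nutlin among the 28 shared higher copies with a called difference (25 with the larger effect under Nutlin) thus lay mostly in the 1 run.

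These copies were already above their DMSO in the 5-FU libraries at 6 h. At 6 h, 158 of the 162 had a fold change above 0 (97.5%, against 60.8% of all tested copies), with a median of 1.27. Only 49 copies were called at 5-FU 6 h, 45 higher and 4 lower (0.214% and 0.019% of tested copies), and 37 of the 45 were shared higher copies. At 12 h, 122 of the 162 were called higher (10.9% of all tested copies were). The median at 12 h was 1.93. The number of shared higher copies was 72 or 84 when 1 of the DMSO 24 h libraries (replicate 2 or 1) was left out, and 98 when the fit held only the 8 libraries of the comparison.

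Copies lower under both drugs were more dispersed and were lower by more under 5-FU. The 235 copies formed 129 runs, 85 of them single copies, and the largest held 18. Their medians were -1.41 under Nutlin and -2.57 under 5-FU at 24 h. The 5-FU effect was the larger in size at 207 of the 235, and the difference was called at 58, all with the larger fall under 5-FU. The smallest effect that was called among them was -0.42 under Nutlin and -0.72 under 5-FU, and the median SE was 0.24 and 0.37, so a copy needed a larger fall under 5-FU to be called. Alu copies made up 43.4% of them (102 copies in 67 runs) and 34.4% of all tested copies.

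The largest shared lower run lay on chromosome 10 (96362610 to 96373715), with 18 of 30 tested copies, among them 9 Alu copies. Summed over these, CPM went from 119 and 98.8 to 40.8 and 40.9 under Nutlin, and from 181 and 183 to 10.2 and 18.1 under 5-FU. The medians were -1.43 and -3.61, and 10 of the 18 differences were called. On chromosome 20 (25426850 to 25429403), 6 of 8 copies had medians of -1.42 and -3.01. On chromosome 1 (36199999 to 36225732), all 5 tested copies were shared lower, with medians of -2.35 and -3.85. The run on chromosome 9 (21862189 to 21867638), also 5 of 5 copies, had nearly equal medians of -1.40 and -1.59. The run on chromosome 11 (58893817 to 58922607) had 5 of 12 copies with medians of -1.29 and -1.35.

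That last run contains the copy with the largest shared loss among those named. The L1PA15 copy at its start (58893817 to 58894870), a primate L1 fragment, had 52.5 and 50.1 CPM with DMSO and 2.11 and 2.29 CPM with Nutlin. In the 5-FU table it had 85.2 and 83.3 CPM with DMSO and 3.01 and 0.929 CPM with 5-FU, from 13 and 6 counts. The effects were -4.54 (SE 0.16, adjusted p = 5.11e-09) and -5.51 (SE 0.33, adjusted p = 4.81e-09), a difference of 0.996 (SE 0.44, adjusted p = 0.193) that was called without 5-FU 24 h replicate 1 (1.93, adjusted p = 0.0103). A deeper fall under 5-FU was more common, as at an AluSx on chromosome 2 (10270758 to 10271040). It went from 45.8 and 49.9 to 13.3 and 14.2 CPM under Nutlin and from 88.2 and 80.3 to 6.02 and 4.65 CPM under 5-FU, and the effects of -1.80 and -3.99 differed by 2.20 (SE 0.28, adjusted p = 8.08e-05). An AluJb copy on chromosome 22 (46726097 to 46726398) went from 21.9 and 19.0 to 2.996 and 3.14 CPM and from 30.1 and 33.4 to 4.63 and 3.25 CPM. Its effects of -2.73 and -3.03 differed by 0.30 (SE 0.41, adjusted p = 0.733). The AmnSINE2 copy on chromosome 2 (234749848 to 234749939), an ancient SINE, had effects of -2.14 and -3.22.

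As a group, these copies were near their DMSO level at 5-FU 6 h. Their median at 6 h was -0.10, 145 of 235 were below 0 (61.7%, against 39.2% of all tested copies) and 1 was called lower. At 12 h the median was -0.69 and 75 were called lower, against 7.1% of all tested copies. Set against 5-FU at the same 6 h, the fall under Nutlin was the larger at 39 of the 235 by a called difference. The value was lower under Nutlin by a called difference at 0.78% of all tested copies. The choice of copies called lower under Nutlin in the same libraries favours such differences. Among the 166 Nutlin-specific lower copies, 66 had a called difference in this direction, so it was not particular to the shared lower copies. This comparison was added after the data had been seen. The number of shared lower copies was 364 with library size alone and 155 with DESeq2, and between 172 and 266 with 1 library left out.

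**Figure D3:**
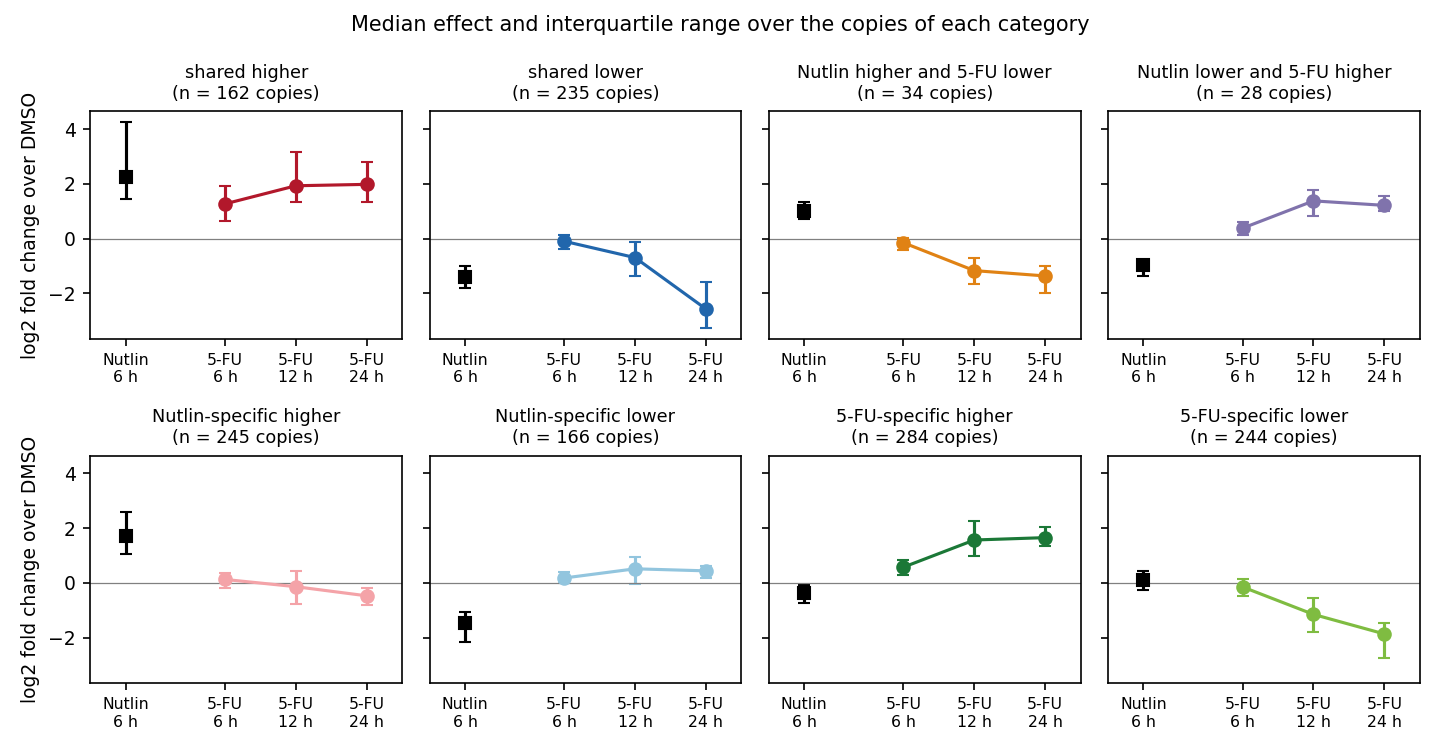
Median log2 fold change over DMSO (symbols) with the interquartile range over copies (bars) for Nutlin at 6 h (square) and 5-FU at 6, 12 and 24 h (circles), in each of the 8 categories. The shared higher copies are at 1.27 by 6 h of 5-FU, while the shared lower copies go from -0.10 at 6 h to -2.57 at 24 h.

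Opposite changes were fewer. Copies higher under Nutlin and lower under 5-FU numbered 34 (0.162% of tested copies) in 18 runs, and copies lower under Nutlin and higher under 5-FU numbered 28 (0.133%) in 26 runs. The difference was called at all 62, which the choice by opposite calls in the same libraries nearly fixes. The first group had medians of 1.02 under Nutlin and -1.36 under 5-FU, the second -0.95 and 1.22.

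Of the 34, 8 lay in a 3.33 kb stretch of chromosome 12 (105414171 to 105417499), where 9 copies were tested. Summed over the 8, CPM went from 91.2 and 77.0 to 149 and 157 under Nutlin, and from 143 and 136.6 to 28.7 and 22.6 under 5-FU. An L2a copy there (105414778 to 105415093) went from 21.1 and 15.9 to 35.8 and 33.8 CPM and from 29.8 and 28.7 to 5.79 and 3.25 CPM. Its effects were 0.91 (SE 0.15, adjusted p = 0.00255) and -2.73 (SE 0.30, adjusted p = 7.12e-06). The MER63A copy beside it, a DNA transposon (105414575 to 105414777), had effects of 1.02 and -2.32. A second stretch on chromosome 16 (23682219 to 23688610) had 5 of 16 copies, 3 of them MER68 or MER68-int, an endogenous retrovirus. Their summed CPM went from 82.8 and 84.3 to 139 and 122 under Nutlin and from 235 and 219.7 to 120.5 and 109 under 5-FU. The third stretch, on chromosome 19 (1458985 to 1459978), had 3 of 4 copies with medians of 1.03 and -1.59.

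Single copies of this kind included an AluSc on chromosome 9 (127997487 to 127997755), with 7.67 and 5.84 CPM rising to 18.0 and 16.9 under Nutlin and 23.6 and 30.3 CPM falling to 11.4 and 9.45 under 5-FU. An AluSz on chromosome 1 (184762413 to 184762716) went from 21.1 and 18.8 to 52.1 and 55.3 CPM and from 28.1 and 19.1 to 11.4 and 8.98 CPM. At 5-FU 12 h, 33 of the 34 were below 0 and 21 were called lower, but this AluSz was at -0.01. Of all tested copies, 56.1% were above 0 and 7.1% were called lower at 12 h. Within the group, 17 of 34 copies had a 5-FU-specific lower copy within 50 kb and 23 a Nutlin-specific higher copy, against 4.36% and 4.70% of all tested copies.

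Among the 28 copies lower under Nutlin and higher under 5-FU, 24 were single. A MER74B copy on chromosome 21 (46565109 to 46565597), an LTR of an ERVL retrovirus, had 10.3 and 13.6 CPM with DMSO and 6.17 and 4.95 CPM with Nutlin. In the 5-FU table it had 49.8 and 32.7 CPM with DMSO and 208 and 119 CPM with 5-FU, so the 5-FU libraries were high but far apart. Its effects were -1.09 (SE 0.21, adjusted p = 0.00817) and 1.98 (SE 0.27, adjusted p = 1.12e-04). An L1PA7 copy on chromosome 4 (87909614 to 87911314) went from 5.51 and 6.98 to 2.73 and 2.05 CPM and from 21.3 and 14.3 to 93.6 and 65.0 CPM. A MER1B copy on chromosome 15 (40269399 to 40269729) had effects of -1.48 and 1.31. An AluSz6 copy on chromosome 6 (42997339 to 42997657) had effects of -0.63 and 0.96, and with an AluSc8 copy it bracketed a run of 7 copies that were higher under 5-FU alone.

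The opposite counts depended on single libraries more than the shared counts did. Copies higher under Nutlin and lower under 5-FU numbered 56 without 5-FU 24 h replicate 1, 20 without its replicate 2, and 11 or 15 without DMSO 24 h replicate 1 or 2. The reverse group numbered 20 and 55, and 12 or 8, in the same order, and 44 without DMSO replicate 1 of the Nutlin pair. With only the 8 libraries in the fit they numbered 10 and 9, and the 5-FU calls of the named AluSc (adjusted p = 0.0591), AluSz (0.112), MER1B (0.0853) and AluSz6 (0.215) were lost in that fit.

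**Figure D4:**
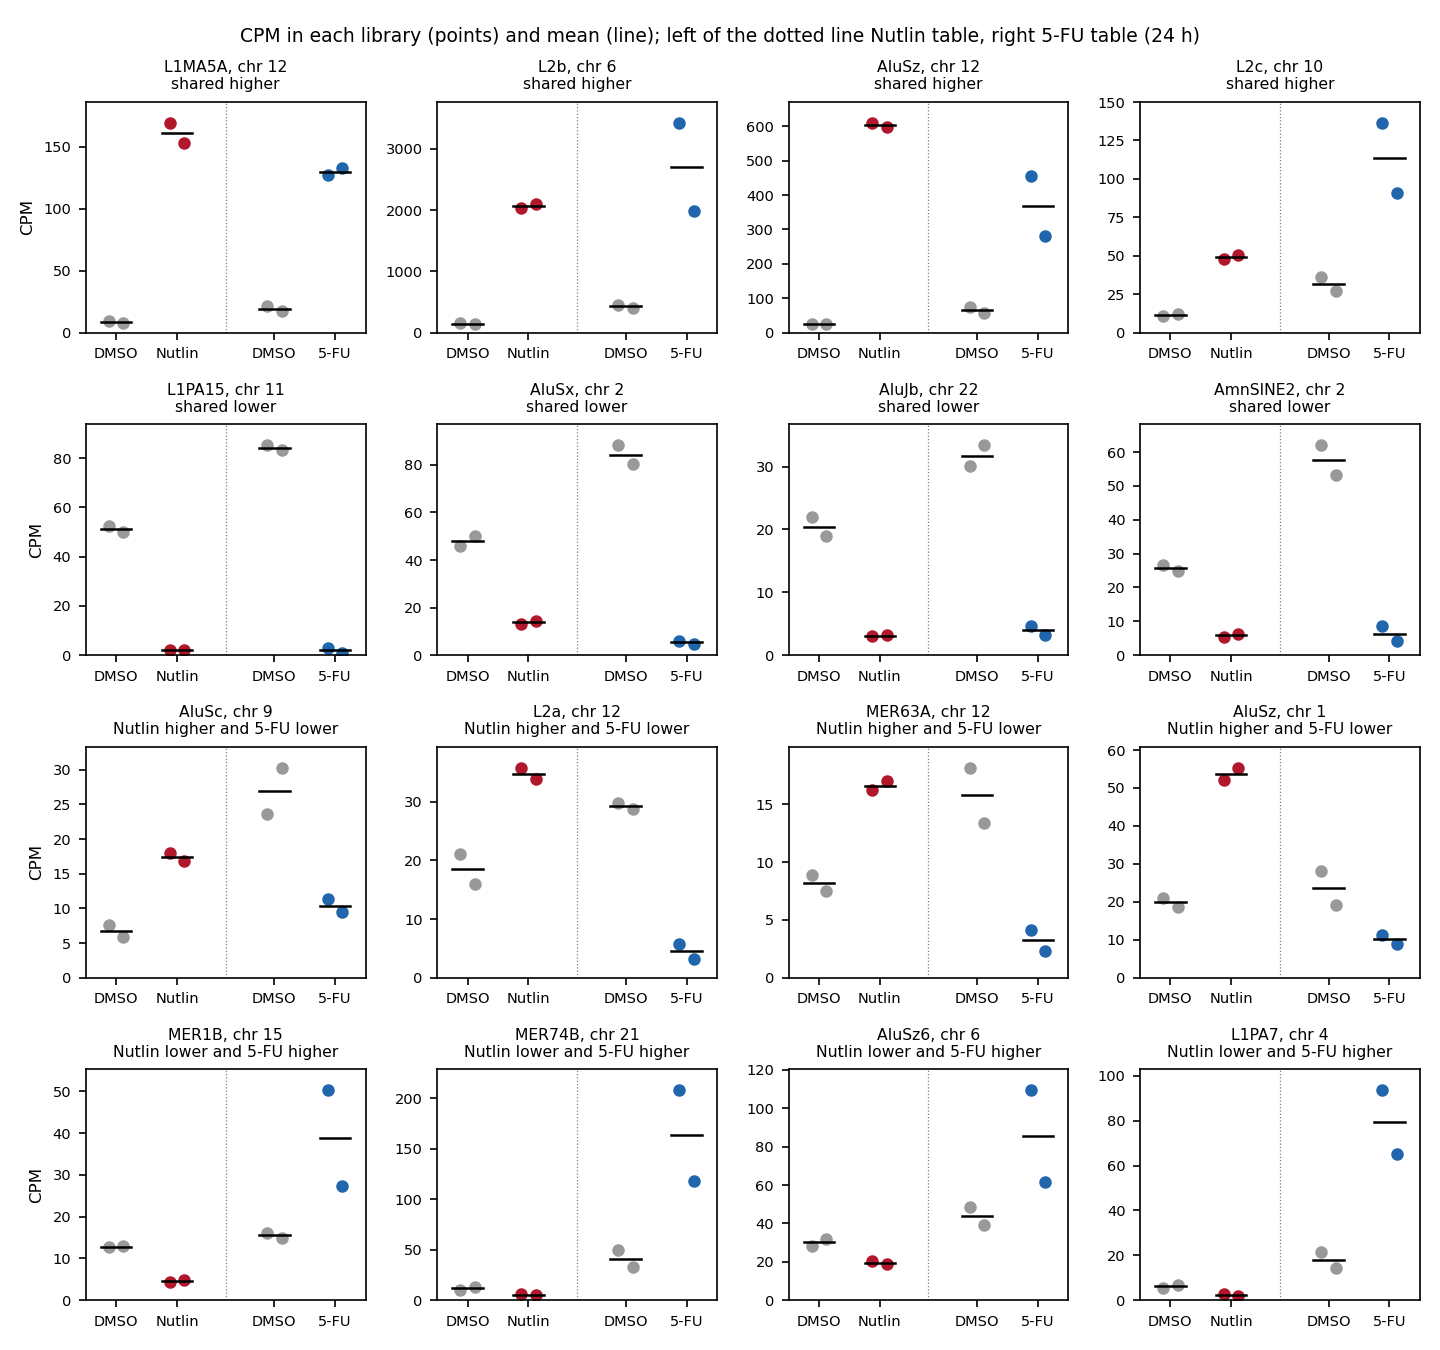
CPM in each of the 8 libraries (points) and group means (lines) for the 4 named copies of each shared and opposite category; the Nutlin table is left of the dotted line and the 5-FU table at 24 h is right of it, and levels are not comparable across it. The copies were chosen among those whose libraries do not overlap, so in every panel the drug libraries lie apart from the DMSO libraries of the same table, in the same direction in the upper 2 rows and in opposite directions in the lower 2.

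Copies called specific to Nutlin were those changed by Nutlin, not called under 5-FU at 24 h, and with a called difference. There were 245 higher (1.17% of tested copies) and 166 lower (0.79%). They are specific only against the 24 h effect. At 5-FU 12 h, 14 of the 245 were called higher and 35 lower, and 41 of the 166 were called higher and 10 lower. Of all tested copies, 10.9% were called higher and 7.1% lower at 12 h. Nutlin changed a further 1081 copies (5.14%) at which neither 5-FU nor the difference was called, so these cannot be called specific.

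The largest Nutlin-specific higher run covered 6.01 kb of chromosome 17 (33594335 to 33600344), where all 15 tested copies belonged to the category. Their summed CPM went from 186 and 157 to 829 and 836 under Nutlin, and from 466 and 431 to 375 and 314 under 5-FU at 24 h. The medians were 2.14 and -0.35, and 0.08 under 5-FU at 6 h. A MER20 copy in it (33597658 to 33597888), a DNA transposon, went from 6.70 and 6.77 to 63.2 and 65.7 CPM under Nutlin and from 20.8 and 18.1 to 14.8 and 12.5 CPM under 5-FU. Its effects of 3.25 (SE 0.13, adjusted p = 1.69e-08) and -0.51 (SE 0.24, adjusted p = 0.29) differed by 3.77 (SE 0.29, adjusted p = 2.10e-07). This copy was called higher at 5-FU 12 h (1.08, adjusted p = 0.0106), so it was specific only against the 24 h effect. The L1ME4b copy at the end of the run (33599065 to 33600344) had effects of 3.04 and -0.15, and 0.08 at 12 h (adjusted p = 0.838).

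An L2a copy on chromosome 20 (377488 to 377606) went from 17.7 and 23.6 to 206 and 226 CPM under Nutlin and from 30.9 and 30.5 to 32.7 and 14.2 CPM under 5-FU. The 5-FU replicates lay on either side of the DMSO level there, and without 5-FU replicate 1 the copy was called lower (-1.10, adjusted p = 0.0128). An L1PA16 copy on chromosome 6 (150293323 to 150294628) went from 13.1 and 10.7 to 99.2 and 101 CPM under Nutlin and from 27.3 and 28.2 to 30.8 and 19.5 CPM under 5-FU. Other runs were on chromosome 2 (238290744 to 238300454, 6 of 12 copies, medians 1.33 and -0.13) and on chromosome 1 (112265506 to 112268658, 5 of 5 copies, medians 2.92 and 0.77, and 162751074 to 162755429, 5 of 5 copies, medians 1.03 and -0.28). The first of the pair on chromosome 1 was above its DMSO under 5-FU as well, by less.

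Lower copies specific to Nutlin were mostly single (114 of 133 runs). An L1PA3 copy on chromosome 1 (11143681 to 11146601) went from 23.3 and 25.1 to 10.8 and 10.7 CPM and from 70.8 and 65.0 to 113 and 92.8 CPM. Its effects were -1.17 (SE 0.14, adjusted p = 3.68e-04) and 0.60 (SE 0.20, adjusted p = 0.109). The 5-FU effect was called higher by DESeq2 (0.55, adjusted p = 0.0353) and without 5-FU 24 h replicate 2 (0.73, adjusted p = 0.0305). An AluJr copy on chromosome 20 (19978960 to 19979273) went from 6.59 and 8.13 to 3.08 and 2.90 CPM under Nutlin and from 19.7 and 17.4 to 34.5 and 30.5 CPM under 5-FU. Its 5-FU libraries lay above their DMSO without passing the threshold (0.81, adjusted p = 0.0536). DESeq2 called it higher under 5-FU (0.77, adjusted p = 0.0224), as did edgeR without 5-FU 24 h replicate 2 (0.90, adjusted p = 0.0391), and by those calls it would be opposite rather than specific to Nutlin. At 5-FU 12 h this AluJr was called higher by edgeR (1.15, adjusted p = 0.0059). Copies named L1HS or L1PA, the youngest L1 groups, made up 10.2% of the Nutlin-specific lower copies (17 of 166) and 4.48% of the tested copies. Reads from young L1 copies match several places, and how the authors assigned such reads is not given in the sources used here. The largest runs were on chromosome 5 (151186365 to 151190918, 6 of 8 copies, medians -1.13 and 0.08) and chromosome 4 (81210151 to 81221245, 5 of 6 copies, medians -1.63 and 0.42). On chromosome 2 (216239073 to 216248030), 4 of 5 copies had medians of -2.97 and -0.59.

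Specific to 5-FU were 284 higher copies (1.35% of tested copies) and 244 lower copies (1.16%), and 744 further copies (3.54%) were changed by 5-FU without a called difference. The higher copies had medians of 1.65 under 5-FU at 24 h and -0.38 under Nutlin, and the lower copies -1.87 and 0.09. Of the 284 higher copies, 263 were above 0 at 5-FU 6 h (92.6%, against 60.8% of all tested copies). At 6 h 6 of them were called higher, and at 12 h 211 were, against 0.214% and 10.9% of all tested copies. Of the 244 lower copies, 120 were called lower at 12 h, against 7.1% of all tested copies.

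The largest 5-FU-specific higher run lay on chromosome 10 (33177500 to 33187663), with 14 of 16 copies, among them 3 HERVL74-int fragments of an endogenous retrovirus. Its summed CPM was 177 and 185 with DMSO and 187 and 191 with Nutlin, and in the other table it was 461 and 425 with DMSO and 1351 and 1335 with 5-FU. The medians were 0.03 and 1.63. On chromosome 16, an ERVL-B4-int copy (88456368 to 88456738) and an L1MB7 copy within 1 kb of it (88455450 to 88455994) had the largest increases under 5-FU among the named copies. ERVL-B4-int went from 4.68 and 3.27 to 106 and 66.9 CPM under 5-FU (4.44, SE 0.31, adjusted p = 2.91e-08) and from 1.51 and 2.19 to 0.881 and 1.09 CPM under Nutlin (-0.92, SE 0.48, adjusted p = 0.276). L1MB7 went from 8.05 and 10.5 to 188 and 123 CPM under 5-FU and from 2.70 and 2.92 to 3.35 and 2.29 CPM under Nutlin. Both were called higher by 5-FU 6 h, with log2 fold changes of 2.16 each. A FLAM_C copy on chromosome 16 (67844891 to 67845026), an Alu monomer, was abundant in both tables. It had 124 and 145 CPM with DMSO and 146 and 130 CPM with Nutlin, and went from 209 and 193 to 1895 and 1327 CPM under 5-FU (log2 fold change 3.003, SE 0.23), with 0.28 at 6 h and 3.34 at 12 h. A HERVL-int copy on chromosome 1 (94629679 to 94631707) had effects of -2.13 (SE 0.63, adjusted p = 0.0534) and 1.94 (SE 0.33, adjusted p = 0.0011). Its Nutlin libraries held 6 and 2 counts, and it passed the threshold as lower under Nutlin with library size alone (adjusted p = 0.0408) and without structural RNA (0.048).

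The 2 largest 5-FU-specific lower runs were made of Alu copies. On chromosome 17 (57279051 to 57283437), 8 of 10 copies, all Alu, went in sum from 406 and 379 to 139.7 and 119.6 CPM under 5-FU and from 201 and 204 to 165 and 167 CPM under Nutlin, with medians of -1.64 and -0.34. On chromosome 15 (64650866 to 64657182), 7 of 11 copies, all Alu, had medians of -3.07 and -0.43. At 5-FU 12 h the medians of these runs were 0.19 and -0.66. Among single copies, a MIR on chromosome 1 (68940669 to 68940905) had 17.0 and 16.7 CPM with DMSO and 0.927 and 0.929 CPM with 5-FU, from 4 and 6 counts, and 8.75 and 9.38 CPM against 5.73 and 6.64 CPM under Nutlin. Its effects were -4.14 and -0.56. An AluSx1 on chromosome 17 (38458596 to 38458907) had effects of -3.73 and -0.51, an AluJr4 on chromosome 19 (11256548 to 11256729) -3.32 and -0.41, and an L1PA4 on chromosome 11 (17360903 to 17364840) -2.60 and 0.42. The AluSx1 was called lower under Nutlin with library size alone (adjusted p = 0.0438).

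The 2 libraries of 5-FU at 24 h decided the split of 5-FU-specific copies. Without replicate 1 there were 236 higher and 515 lower, and without replicate 2 there were 529 higher and 191 lower, while the median of all copies was -0.17 and 0.15. Without DMSO 24 h replicate 1 or 2 there were 136 or 105 higher and 107 or 145 lower. Leaving out a library of the Nutlin table moved them to 157 to 176 higher and 130 to 164 lower. Nutlin-specific copies numbered 122 to 307 higher and 73 to 246 lower over the same 8 omissions.

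Neighbours within 50 kb were compared between the categories. Of the 162 shared higher copies, 63 (38.9%) had a Nutlin-specific higher copy within 50 kb and 10 (6.17%) a 5-FU-specific higher copy, against 4.70% and 4.77% of all tested copies. The 45 copies of the largest run all counted through 1 Nutlin-specific copy inside it, and outside that run the numbers were 18 of 117 (15.4%) and 10 of 117 (8.55%). No shared higher copy had a Nutlin-specific lower, 5-FU-specific lower or opposite copy within 50 kb, and 2 had a shared lower copy. Of the 235 shared lower copies, 48 (20.4%) had a 5-FU-specific lower copy near them and 12 (5.11%) a Nutlin-specific lower copy, against 4.36% and 3.64% of all. Within its own category, each of the 4 specific groups had another copy within 50 kb at 31.3% to 51.2% of its members.

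Every category held several classes of repeat, in shares that differed from those of all tested copies. Alu copies were 34.4% of tested copies, 43.4% of shared lower, 32.1% of shared higher, 24.6% of 5-FU-specific higher and 35.2% of 5-FU-specific lower. They were 17.6% of the copies higher under Nutlin and lower under 5-FU, and 39.3% of the reverse group. MIR copies were 10.2% of tested copies, 9.26% of shared higher and 5.11% of shared lower. LTR elements were 12.8% of tested copies, 17.9% of shared higher and 18.3% of 5-FU-specific higher, and 8.94% of shared lower. Among LTR elements the MLT, MST and THE groups gave 14 of the 29 shared higher and 23 of the 52 5-FU-specific higher copies, shares of 48.3% and 44.2%, and they were 45.4% of all tested LTR copies. The 52 shared higher Alu copies lay in only 16 runs. Near-full-length Alu copies made up 78.8% of the Alu copies in the shared higher group, 75.5% in the shared lower group and 72.8% overall. Copies of AluJ, the oldest of the 3 main Alu groups, were 6.17% of the shared higher (10 copies) and 11.1% of the shared lower copies (26), against 8.55% of all tested. AluY, the youngest, were 3.70% (6) and 5.96% (14), against 3.08% of all tested. No share was tested, and within a run the classes are those of 1 place.

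Satellites, tandem repeats of centromeric and other heterochromatin, showed the pull of single places. Of 55 tested satellite copies, 5 were shared lower (9.09%, against 1.12% of all tested copies), all BSR/Beta copies of 1 run on chromosome 19 (23277827 to 23286027), with effects of -1.04 to -2.32 under Nutlin and -2.15 to -2.62 under 5-FU. Another BSR/Beta copy on the same chromosome (23489887 to 23491514) was shared higher, with effects of 1.85 and 2.90. The 4 Nutlin-specific higher satellites (7.27%, against 1.17% of all), 3 ALR/Alpha and 1 HSAT4, also formed 1 run on chromosome 19 (28212954 to 28237198, with an LTR22B1 copy), with a median of 1.49 under Nutlin and -0.62 under 5-FU.

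**Figure D5:**
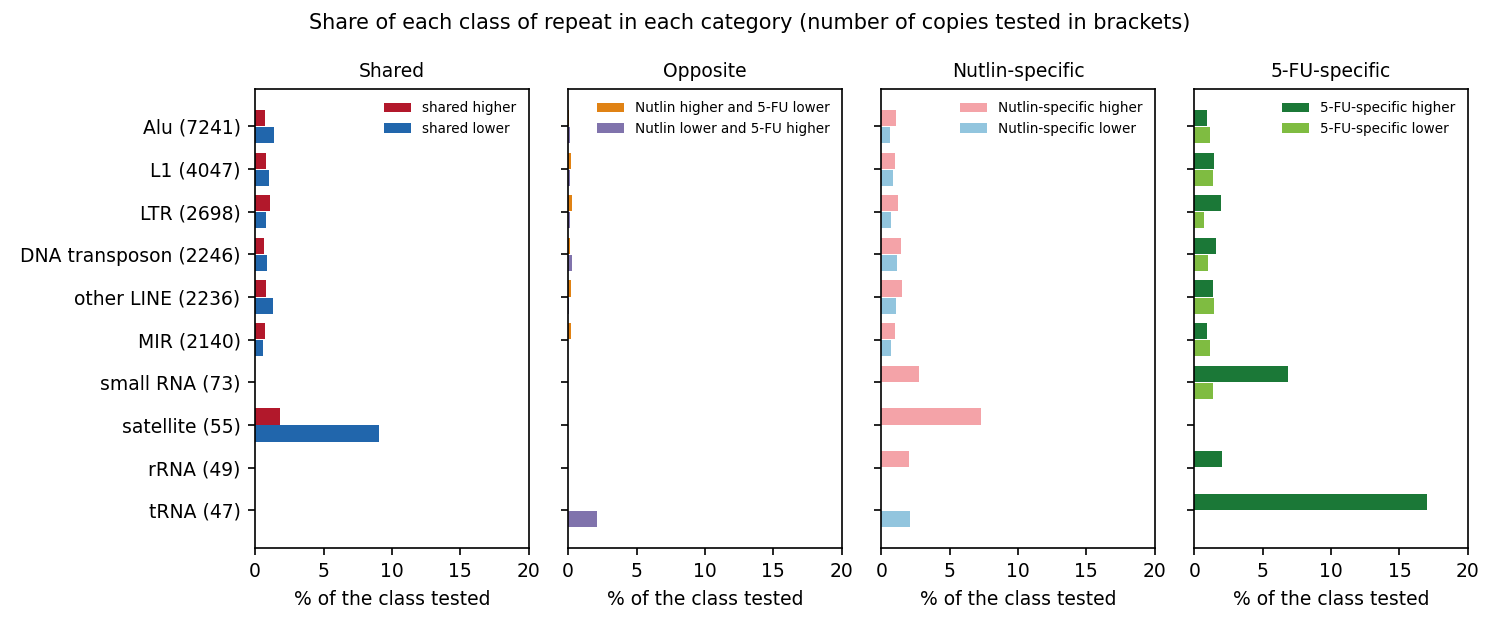
Percentage of the tested copies of each repeat class that fell into each category, in 4 panels of 2 categories; the number of tested copies per class stands in brackets. The Alu, L1, LTR, MIR and DNA transposon classes lie between 0.561% and 1.93% in the shared and drug-specific categories, while tRNA copies reach 17.0% in the 5-FU-specific higher category and satellites 9.09% in the shared lower category, the last from 1 run.

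Transfer RNA copies, the genes of the amino acid carriers of translation, were called higher under 5-FU and not under Nutlin. Of 47 tested copies, 12 were higher under 5-FU at 24 h (3.84% of all tested copies were) and 0 lower, while 0 were higher and 2 lower under Nutlin. At an unadjusted p under 0.05 in edgeR, 2 were lower under 5-FU and 1 was higher under Nutlin, and DESeq2 called 1 and 0. No tRNA copy was shared in edgeR or DESeq2, and 1 had the same sign at an unadjusted p under 0.05 for both. The difference was called at 11, all negative, which means lower under Nutlin than under 5-FU, and 8 copies (17.0%) were 5-FU-specific higher, 6 of them on chromosome 6. The medians were -0.26 under Nutlin and 0.44 under 5-FU. With library size alone 8 were called higher and 1 lower under 5-FU, and the medians were -0.40 and 0.27. With only the 8 libraries of the comparison in the fit, 4 were called higher under 5-FU and the difference was called at 9.

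The tRNA-Ser-AGY copy on chromosome 6 (26305717 to 26305798) was called in opposite directions, with effects of -1.01 (SE 0.27, adjusted p = 0.0327) and 1.19 (SE 0.25, adjusted p = 0.00726). A tRNA-Ala-GCA copy on chromosome 6 (28770577 to 28770647) was the abundant member lower under Nutlin. It had 46.0 and 47.2 CPM with DMSO and 21.0 and 20.5 CPM with Nutlin (-1.17, SE 0.11, adjusted p = 5.33e-05), and 203 and 203 CPM with DMSO against 338 and 262 CPM with 5-FU (0.56, SE 0.21, adjusted p = 0.151). Without 5-FU 24 h replicate 2 it was called higher under 5-FU (0.73, adjusted p = 0.0275). A tRNA-Met copy on chromosome 6 (26701712 to 26701787) had 1.98 under 5-FU (adjusted p = 6.62e-05) and -0.68 under Nutlin (SE 0.44). Copies of tRNA genes are near identical, and reads may have been shared among them.

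Small structural RNAs were called for single drugs. Of 13 tested 7SL copies, 2 were 5-FU-specific higher, on chromosome 6 (28945252 to 28945550) and chromosome 14 (50320333 to 50320632), with 1.95 and 1.81 under 5-FU and 0.08 and 0.23 under Nutlin (1.35% of all tested copies were in this category). The abundant 7SL copy (chromosome 14, 50329268 to 50329567) had 0.16 under Nutlin (SE 0.04, adjusted p = 0.0227) and 0.82 under 5-FU (SE 0.30, adjusted p = 0.148). BC200, the neuronal Alu-derived RNA, was higher under 5-FU at its chromosome 2 copy (47562454 to 47562653), with 2.62 (SE 0.27, adjusted p = 2.61e-06). Its CPM went from 2235 and 2083 with DMSO to 15938 and 10665 with 5-FU. Under Nutlin the same copy had 1116 and 1218 CPM, while its DMSO libraries had 1.62 and 1221 CPM (15 and 11718 counts), so the Nutlin effect of 0.93 (SE 1.28) rests on DMSO replicate 1 of the Nutlin pair. The 7SK copy on chromosome 6 (52860418 to 52860749) had 0.34 (adjusted p = 0.00259) and 0.60 (adjusted p = 0.423). Among 8 Y RNA copies, an HY1 copy on chromosome 7 (148684229 to 148684340) was 5-FU-specific higher (1.30). An HY3 copy on chromosome 7 (148680847 to 148680947) was 5-FU-specific lower (-4.27, SE 0.81). Its counts were unstable within a pair, since the libraries of 5-FU at 6 h had 946 and 23.6 CPM (4414 and 124 counts). At 5-FU 12 h its effect was -0.23 (adjusted p = 0.874). An HY3 copy on chromosome 6 (34841620 to 34841703) was Nutlin-specific higher (1.77, SE 0.49). Of all tested copies, 1.35%, 1.16% and 1.17% fell into these 3 categories.

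Of 18 tested LTR10 and MER61 copies, 1 was shared higher (0.771% of all tested copies were) and 3 were shared lower (1.12% of all). Lower calls numbered 3 under Nutlin (4.23% of all tested copies) and 5 under 5-FU (4.39% of all). The shared higher copy was a MER61-int on chromosome 5 (27472822 to 27477649), with 2.76 (SE 0.35, adjusted p = 4.66e-04) under Nutlin and 1.99 (SE 0.29, adjusted p = 2.14e-04) under 5-FU. It had only 9 and 8 counts with the DMSO of the Nutlin pair, and 70 and 51 with Nutlin. In the 5-FU table it had 101 and 165 counts with DMSO at 24 h and 379 and 649 with 5-FU. The 3 lower copies were an LTR10A on chromosome 4 (1740261 to 1740753), with -2.30 and -2.44, an LTR10B1 on chromosome 6 (27841261 to 27841298), with -1.13 and -3.06, and an LTR10B1 on chromosome 20 (47903608 to 47904051), with -2.03 and -1.65. The LTR10A had only 6 and 3 counts with Nutlin and 2 and 8 with 5-FU at 24 h. The LTR10B1 on chromosome 20 had 6 and 5 counts with Nutlin and 13 and 26 with 5-FU. The LTR10B1 on chromosome 6 is a fragment of 38 bp, with 157 and 139 counts and 52 and 21. The other 2 MER61 copies that were called were 5-FU-specific lower, and one of them (chromosome 19, 23286028 to 23286830) adjoined the shared lower BSR/Beta run. Each of these 2 had 1 and 2 counts with 5-FU at 24 h. The medians of the 18 were 0.08 under Nutlin and -0.14 under 5-FU.

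Summing the copies in both tables by repeat name gave 1027 subfamilies tested for both drugs, of which 105 were called under Nutlin (10.2%) and 121 under 5-FU (11.8%). There were 21 higher under both, 3 lower under both, 5 opposite. The shared higher names with the smallest p were MER34C_, LTR9B and LTR53-int, all LTR elements. MER34C_ had 0.96 under both drugs, LTR9B 0.64 and 1.00, and LTR53-int 0.67 and 0.60, and all 3 stayed called without their most abundant copy (0.98 and 0.90, 0.71 and 0.87, and 0.67 and 0.72). The shared lower names were LTR10B1 (-1.05 and -1.62), LTR06 (-0.48 and -1.12) and Charlie10a (-0.87 and -0.49), and each lost both calls without its most abundant copy (-0.83 and -0.65, -0.49 and -0.66, and -0.35 and 0.02). LTR06 thus kept its Nutlin effect without the call. Those copies held 78.5%, 92.4% and 51.3% of the counts in the Nutlin table.

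The 5 opposite names were MER68-int (0.61 and -0.57), tRNA-Ala-GCA (-1.10 and 0.67), tRNA-Ser-AGY (-0.86 and 0.84), tRNA-Met (-0.86 and 1.56) and MLT1F1-int (-0.57 and 0.74). Without the most abundant copy of each name, 8 names were shared higher, 1 shared lower and 0 opposite in edgeR, while 6 were opposite and 47 had the same sign at an unadjusted p under 0.05 for both drugs (no other tool was run on these sums). The shared counts turned with the scaling, with RLE size factors giving 9 and 10 names, and library size alone 5 and 10, in the order higher, lower. Without Nutlin replicate 1 only 13 subfamilies were called under Nutlin and 3 were shared higher.

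At 6 h of both drugs, shared calls were mainly of higher copies, although few copies were called for 5-FU at that time. With 5-FU at 6 h in place of 24 h, 37 copies were shared higher, 1 shared lower and 0 opposite. At an unadjusted p under 0.05 in edgeR for both drugs, 387 copies had the same sign and 167 opposite signs (no other tool was run at 6 h). All 37 were among the 162 shared at 24 h. The difference from the 6 h effect was called at 285 copies (1.36%), at 121 (0.576%) with the higher value under Nutlin and at 164 (0.78%) with the higher value under 5-FU. By the same rule as at 24 h, 93 copies were higher and 133 lower under Nutlin alone, against 4 and 2 under 5-FU alone. Across copies, r was 0.135 at 6 h against 0.234 at 24 h.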

How the data were processed

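Total RNA of IMR90 cells was sequenced with a stranded kit, per the labels' protocols. The authors deposited whole-number read counts per annotated repeat copy in 2 tables. The submitters' processing notes name hg19, Trimmomatic 0.32, cutadapt 1.10, Bowtie2, edgeR and DESeq2, without roles, and the counting program, the use of strand and the handling of reads that match several copies are not given in the sources used here. Since most copies resemble others, reads of young or structural repeats may sit at the wrong copy, and without strand a copy's reads cannot be told from antisense ones. Copies listed in both tables held 96.8% to 100% of the counts of each library. The untreated pair deposited beside Nutlin had identical values in both columns and entered as 1 sample.

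Each table was filtered (edgeR filterByExpr, minimum count 10) and scaled by TMM within the table. Fits used edgeR 4.0.16 (glmQLFit, glmQLFTest, R 4.3.3) with a mean per group and Benjamini-Hochberg adjustment over all copies tested in the table, 21328 and 63602. The difference of the effects came from a joint fit of 18 libraries. Calls are an adjusted p under 0.05. Shared copies were called for both drugs with the same sign, opposite copies with opposite signs, and specific copies for 1 drug and in the difference. Named copies are at most 4 per category by smallest p with libraries that do not overlap and at most 2 per run; named runs are the 5 with most copies, and named subfamilies the 3 shared in each direction with the smallest p and every opposite one. The 7SL, 7SK, BC200, Y RNA, tRNA, LTR10 and MER61 lists were named as lists. In the largest run an AluY, another AluSz, an L2c and an AluSp copy were named besides, for their counts. Copies, lists and rules were chosen with earlier results of these data known. Classes come from repeat names. The procedure was tested on simulated data. Alternatives were DESeq2 1.42.0, RLE factors, library size alone, no filter, a threshold of 0.01, only the 8 libraries, no structural RNA, a replicate block and leaving out each library. Tables and plots used Python 3.11.15, pandas 2.3.3 and matplotlib 3.10.9.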

Additional observations from a re-analysis of the deposited data

Results flagged for a closer look

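Opposite calls at the same copy were looked for. The difference itself was called at each, which the choice by opposite calls in the same libraries nearly fixes. There were 62 such copies, 34 higher under Nutlin and lower under 5-FU at 24 h and 28 the reverse, and 8 of the 34 lay in 3.33 kb of chromosome 12. Drug, dose, time and table differ together here, and their parts in the difference were not tested.

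Shared copies whose effects differed in size, by the same test, numbered 86. Of these, 28 were shared higher (25 with the larger effect under Nutlin, 22 of them in 1 run) and 58 were shared lower, each with the larger fall under 5-FU.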

How the results depend on the processing

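Counts over all copies moved most with the low-count filter, the threshold and the libraries fitted. With library size alone there were 364 shared lower and 368 5-FU-specific lower copies. Without the filter, 349704 copies were tested and edgeR called 0 under Nutlin (23402 at an unadjusted p under 0.05; DESeq2 with the filter called 900), so shared, opposite and Nutlin-specific copies numbered 0 each, the difference was called at 883 and r was 0.0648. DESeq2 gave 900 copies under Nutlin, 155 shared lower, and 119 and 62 Nutlin-specific higher and lower. At a threshold of 0.01 there were 755 under Nutlin, 845 under 5-FU, 26 under 5-FU at 6 h and 473 differences, with 70 shared higher, 104 shared lower, 8 and 2 opposite, 85 and 31 Nutlin-specific and 117 and 89 5-FU-specific. With only the 8 libraries, 5-FU gave 771 and the difference 746, with 98 shared higher, 10 and 9 opposite, 95 Nutlin-specific lower, and 123 and 100 5-FU-specific. With 5-FU 6 h in place of 24 h, 49 copies were called for 5-FU and 285 differences, with 37 and 1 shared, 0 and 0 opposite, 93 Nutlin-specific higher, 4 and 2 5-FU-specific and r of 0.135. Subfamilies shared higher and lower were 9 and 10 with RLE factors (162 called under Nutlin), 5 and 10 with library size alone (8 opposite, 259 under Nutlin, 47 under 5-FU), and 8 and 1 without the most abundant copy (0 opposite, 48 and 33). The cause of these shifts was not tested.

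With 1 library left out, the lone sample being assumed to vary like the other groups, 5-FU calls ran from 756 to 1862 (756 and 770 without DMSO 24 h replicate 1 and 2), Nutlin calls from 1917 to 2368 and differences from 644 (without DMSO 6 h replicate 2 of the Nutlin pair) to 1848, with r from 0.177 to 0.226. Shared higher ran from 72 to 205, shared lower from 172 to 266, opposite from 11 to 56 and 8 to 55, Nutlin-specific from 122 to 307 and 73 to 246, and 5-FU-specific from 105 to 529 and 107 to 515. In subfamilies, Nutlin calls ran from 13 to 105, 5-FU calls from 48 to 225, shared higher from 3 to 27, shared lower from 2 to 7 and opposite from 1 to 7. Of the 162 shared higher copies 72 to 144 were again called shared higher, and of the 235 shared lower copies 171 to 215.

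Samples with the same replicate number deviated together little or not at all (correlation -0.002 for the Nutlin pair of groups and 0.142 for 5-FU 24 h). Correlations this weak across copies cannot decide whether replicates were paired. The main fits had no term for the replicate number. With a replicate block, 1680, 1584 and 1070 copies were called under Nutlin, 5-FU and in the difference, with 144 shared higher and 205 shared lower, all within 1.5 times the values without it. Runs joined at 10 kb numbered 68 and 136 in place of 66 and 129. No called effect of a named copy changed sign under the alternatives run on copies. Depth limits copies with few counts: the median SE of the difference was 0.58 over all tested copies.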
